A study of Homo sapiens with 6 samples.

Results

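The 10 genes described here encode enzymes that make or break down prostaglandins and lipoxygenase products. They were taken by symbol (PLA2G4A, PTGS1, PTGS2, PTGES, PTGES2, PTGR1, HPGD, ALOX5, ALOX15B and LTA4H), and all 10 were found among the 23686 genes of the deposited tables. The series measured RNA by sequencing in the human non-small cell lung carcinoma lines HCC15 and A427, each given LGR6 siRNA 2, LGR6 siRNA 4 or a control siRNA labelled Tax. There was 1 library for each line and siRNA, 6 in all. All groups were labelled WT in genotype, grown in RPMI medium with 5% serum, transfected and collected at 48 h, so no untransfected cells were measured. The comparisons with control ask how gene expression differs with LGR6 siRNA. Those of a single siRNA fitted a shared effect over both lines, and A427 had at most 5 LGR6 reads in a library. The comparison of the lines asks which enzymes each of them expresses.

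Prostaglandin synthesis starts when a phospholipase frees arachidonic acid from membranes, a cyclooxygenase oxidises it, and a terminal synthase gives the final product, such as prostaglandin E2. Lipoxygenases take the same fatty acid towards leukotrienes and hydroxy acids. In the lung, cyclooxygenase 2 is often raised in carcinomas, and prostaglandin E2 is cleared by an oxidation followed by a reduction. LGR6, best known as an R-spondin receptor, has also been described as a receptor for the lipid mediator maresin 1.

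PTGS2, PLA2G4A, PTGES and PTGR1 differed between the lines by more than 10-fold, and their promoters are printed for that reason. The windows are the 250 bases before the annotated start, 5′ to 3′ on the gene's strand, from RefSeq on GRCh38.p14. The counts were made on hg19, so these positions are not those of the counting. PTGS2 lies at chr1:186680424-186680673 on the minus strand, PLA2G4A at chr1:186828699-186828948 on the plus strand, PTGES at chr9:129753043-129753292 on the minus strand and PTGR1 at chr9:111599432-111599681 on the minus strand. Capitals mark matches to the motifs searched on both strands.
PTGS2: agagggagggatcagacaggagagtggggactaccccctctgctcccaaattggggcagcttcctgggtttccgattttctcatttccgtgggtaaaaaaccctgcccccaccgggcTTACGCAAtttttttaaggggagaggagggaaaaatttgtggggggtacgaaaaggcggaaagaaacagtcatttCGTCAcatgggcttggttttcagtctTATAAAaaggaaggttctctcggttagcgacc
PLA2G4A: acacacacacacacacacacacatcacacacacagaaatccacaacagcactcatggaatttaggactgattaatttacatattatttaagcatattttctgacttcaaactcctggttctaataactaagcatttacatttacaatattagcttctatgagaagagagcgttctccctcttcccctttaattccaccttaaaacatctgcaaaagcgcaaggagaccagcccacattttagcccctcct
PTGES: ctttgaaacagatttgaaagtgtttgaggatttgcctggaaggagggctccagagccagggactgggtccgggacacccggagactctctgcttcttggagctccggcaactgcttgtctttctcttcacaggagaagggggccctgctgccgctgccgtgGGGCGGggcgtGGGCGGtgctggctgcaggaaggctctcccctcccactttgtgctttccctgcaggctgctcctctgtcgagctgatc
PTGR1: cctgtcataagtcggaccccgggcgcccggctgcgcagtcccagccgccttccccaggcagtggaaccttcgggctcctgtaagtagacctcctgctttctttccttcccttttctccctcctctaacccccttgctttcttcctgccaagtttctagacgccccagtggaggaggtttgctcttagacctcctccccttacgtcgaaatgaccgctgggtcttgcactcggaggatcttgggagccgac

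The motifs were TATAAA (the TATA box, in 10.7% of the 35116 promoter windows of that length), GGGCGG (GC box, 42.6%), TGACG (the core of the cAMP response element, 21.2%), TGACNNNGC (the core of the antioxidant response element, 10.9%), CACGTG (E-box, 6.34%) and TTNCGNAA (a C/EBP motif, 2.18%). The PTGS2 window held 3 matches: TATAAA from base 32 to 27 before the start, CGTCA from base 58 to 54 and TTACGCAA from base 133 to 126. The PTGES window held GGGCGG at bases 89 to 84 and at bases 78 to 73. No match was found in the PLA2G4A or PTGR1 window. GC content was 50.4% for PTGS2, 38.8% for PLA2G4A, 61.2% for PTGES and 59.6% for PTGR1. A match is a description of the letters, and the binding of any factor was not measured. Of the 10 genes, 8 had a window in the table. HPGD, 9.12-fold apart between the lines, fell just short of the 10-fold used to choose the windows.

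Total counts ran from 25546400 to 28987900 reads per library, and 14481 genes had at least 10 reads in at least 2 libraries and were tested. All 5 epithelial markers were at 1 TPM or more (TPM is transcript abundance scaled for gene length and library total) in every HCC15 library, and 4 of 5 in every A427 library, where KRT19 stayed under 1 TPM. Their summed level, mostly the keratins KRT8 and KRT18 in HCC15, was 3614 to 7902 TPM in HCC15 and 989 to 1263 TPM in A427. EPCAM ran the other way, at 27.6 to 53.9 TPM in HCC15 and 403 to 457 TPM in A427, and CDH1 was 5.64 to 46.0 TPM in HCC15 and 3.11 to 3.52 TPM in A427. Blood cell markers summed to 2.20 to 4.22 TPM in HCC15 and 25.4 to 32.5 TPM in A427, mostly CD68, with CD3E and LYZ at 0 in both lines. Fibroblast markers summed to 4.81 to 7.25 TPM in HCC15 and 8.19 to 11.7 TPM in A427, mostly COL1A1, and endothelial markers to at most 0.04 TPM in HCC15 and 0.25 TPM in A427. Of the platelet and mast cell markers, KIT reached 23.3 TPM in HCC15 and PPBP 3.40 TPM in A427, with TPSAB1 at 0 in both. The part of these differences in the results was not tested. LGR6 itself had 39 reads with siRNA 2, 77 with siRNA 4 and 257 with control in HCC15, and 0, 0 and 5 reads in A427. By edgeR LGR6 fell with siRNA 2 (log2 fold change -2.87, adjusted p = 0.00378) and siRNA 4 (-1.76, adjusted p = 0.00757). The call with siRNA 2 was lost by limma on log2(TPM + 1) (adjusted p = 0.166) and, by edgeR, without the HCC15 control (-5.92, 0.307) or HCC15 siRNA 2 (-4.92, 0.374). The call with siRNA 4 was lost by limma (0.255) and, by edgeR, without the HCC15 control (-4.81, 0.332), HCC15 siRNA 4 (-5.12, 0.316) or the A427 control (-1.69, 0.0822). DESeq2 gave no adjusted p for LGR6 in either comparison. In A427 LGR6 was at or near the limit of detection with every siRNA.

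With no repeat of any line and siRNA, p-values here measure how far siRNA effects differed between lines, or between siRNAs within a line, and not a spread between repeated cultures. Whether each library had its own culture is not stated in the labels. Tests were edgeR's quasi-likelihood test over all 14481 genes with Benjamini-Hochberg adjustment and a threshold of 0.05. Of the 10 enzymes, 7 passed this filter on reads, and PTGS1, ALOX5 and ALOX15B did not. Levels are in TPM and fold changes come from counts. In bulk RNA, fewer expressing cells and less RNA per cell cannot be told apart.

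The lines differed in the levels of several enzymes of the prostaglandin pathway. HCC15 had high PTGR1, PTGES and PTGES2 with little PTGS2 or PLA2G4A. A427 had PTGS2, PLA2G4A and PTGES2 with little PTGES and almost no PTGR1. In A427 the mean of PTGES2 was 41.9 TPM, above that of PTGS2 (19.8 TPM). LTA4H was high in both lines, and PTGS1, ALOX5 and ALOX15B were at or near 0 in both. In HCC15 the order of mean TPM over the 3 libraries was PTGR1 (308), LTA4H (213), PTGES2 (90.5), PTGES (55.6), PLA2G4A (1.27), PTGS2 (0.61), HPGD (0.213), PTGS1 (0.113), ALOX5 (0.01) and ALOX15B (0). In A427 it was LTA4H (136), PTGES2 (41.9), PTGS2 (19.8), PLA2G4A (15.5), PTGES (4.34), HPGD (2.14), PTGR1 (0.397), ALOX5 (0.143), ALOX15B (0.02) and PTGS1 (0.00333). The ranges of neighbours overlapped for PLA2G4A and PTGS2, HPGD and PTGS1, and ALOX5 and ALOX15B in HCC15. They overlapped for PTGS2 and PLA2G4A, PTGR1 and ALOX5, and ALOX15B and PTGS1 in A427.

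**Figure D1:**
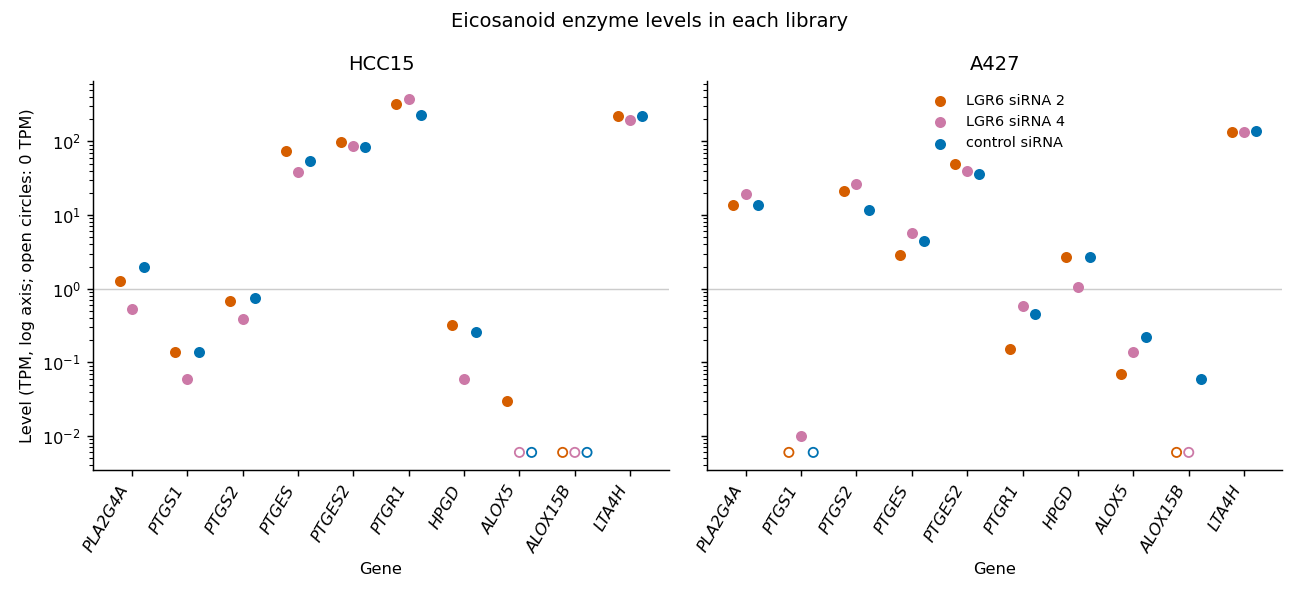
Level of each of the 10 enzymes in TPM (log axis) in the 3 HCC15 libraries (left) and the 3 A427 libraries (right), 1 point per library coloured by siRNA, with open circles for 0 TPM. PTGR1 sits at 226 to 380 TPM in HCC15 and under 1 TPM in A427, while PTGS2 sits under 1 TPM in HCC15 and at 11.7 to 26.5 TPM in A427.

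PLA2G4A encodes cytosolic phospholipase A2, which frees arachidonic acid. Its level was 1.28, 0.53 and 1.99 TPM in HCC15 (siRNA 2, siRNA 4 and control) and 13.58, 19.18 and 13.70 TPM in A427. Every HCC15 library lay below every A427 library. It was 11.5-fold lower in HCC15 than in A427 (log2 fold change -3.52, SE 0.34, edgeR adjusted p = 1.92e-05).

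The cyclooxygenases differed in kind. PTGS1, the constitutive form, had 9, 4 and 9 reads in HCC15 and 0, 1 and 0 reads in A427, below the filter. A count of 0 in these libraries allows up to 0.106 to 0.117 CPM (counts scaled to library size), by counting error alone. PTGS2, the inducible form, had 0.69, 0.39 and 0.75 TPM in HCC15 and 21.32, 26.54 and 11.68 TPM in A427, so the lines did not overlap. It was 29.1-fold lower in HCC15 than in A427 (log2 fold change -4.86, SE 0.30, edgeR adjusted p = 1.58e-06). PTGS2 and PLA2G4A are next to each other among protein-coding genes on chromosome 1 in the RefSeq annotation, and both were lower in HCC15.

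The prostaglandin E synthases PTGES and PTGES2 ran the other way. PTGES3, a cytosolic one, did not pass between the lines (log2 fold change -0.35, SE 0.19, edgeR adjusted p = 0.125). Its mean was 933.5 TPM in HCC15 and 1157 TPM in A427. PTGES, the inducible microsomal synthase, had 74.16, 38.59 and 53.90 TPM in HCC15 and 2.85, 5.80 and 4.38 TPM in A427. The lowest HCC15 library was above the highest A427 library. It was 13.2-fold higher in HCC15 (log2 fold change 3.72, SE 0.29, edgeR adjusted p = 5.30e-06). PTGES2, a membrane-associated synthase, had 98.81, 87.65 and 84.91 TPM in HCC15 and 49.08, 39.96 and 36.57 TPM in A427. It was 2.30-fold higher in HCC15 (log2 fold change 1.20, SE 0.11, edgeR adjusted p = 1.49e-05), again without overlap. The ratio of PTGES to PTGS2 in TPM was 71.9 to 107 over the HCC15 libraries and 0.134 to 0.375 over the A427 libraries.

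PTGR1 encodes prostaglandin reductase 1, which reduces 15-keto-prostaglandins and oxidises leukotriene B4. It had 318.32, 379.91 and 226.01 TPM in HCC15 and 0.15, 0.58 and 0.46 TPM in A427. These A427 levels rest on 2, 8 and 7 reads, against 4721, 5701 and 3311 reads in HCC15. PTGR1 had the widest gap between the lines among the 7 enzymes tested, 814-fold higher in HCC15 (log2 fold change 9.67, SE 0.22, edgeR adjusted p = 7.07e-09). It passed the read filter through its HCC15 libraries alone, which set the direction, so this p-value is no support for a difference. In HCC15 its mean level exceeded that of 96.7% of tested genes, and in A427 that of 7.24%. PTGR1 overlaps ZNF483 in the annotation, which had 24 to 102 reads per library, and whether the counting used strand is not stated.

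HPGD, the 15-hydroxyprostaglandin dehydrogenase that starts the breakdown of prostaglandin E2, had 0.32, 0.06 and 0.26 TPM in HCC15 and 2.68, 1.06 and 2.68 TPM in A427. It was low in both lines and lower in HCC15 without overlap (log2 fold change -3.19, SE 0.30, edgeR adjusted p = 1.92e-05).

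On the lipoxygenase side, ALOX5, which starts leukotriene synthesis, had 1, 0 and 0 reads in HCC15 and 2, 4 and 7 reads in A427. ALOX15B, a 15-lipoxygenase, had 0 reads in all 3 HCC15 libraries and 0, 0 and 2 reads in A427. Neither passed the filter. With no filter, edgeR called PTGS1 higher in HCC15 (log2 fold change 4.08, SE 1.05, adjusted p = 0.00604) and ALOX5 lower (-3.18, SE 1.20, adjusted p = 0.0400), on at most 9 reads per library, and ALOX15B did not pass (adjusted p = 0.265). LTA4H, which turns leukotriene A4 into leukotriene B4 and is also an aminopeptidase, had 221.73, 194.15 and 221.87 TPM in HCC15 and 134.75, 133.25 and 138.81 TPM in A427. It was 1.68-fold higher in HCC15 (log2 fold change 0.74, SE 0.090, edgeR adjusted p = 8.15e-05). ALOX5AP, the protein that ALOX5 works with, had 1 to 3 reads in HCC15 and 0 to 2 in A427, and LTC4S, the leukotriene C4 synthase, had 0 to 1 reads in HCC15 and 1 to 2 in A427.

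All 7 enzymes tested differed between the lines, 4 higher and 3 lower in HCC15, but 76.5% of all tested genes did, 37.2% higher and 39.3% lower. The count is therefore read as no more than the background. PTGR1 passed the read filter through its HCC15 libraries alone, so the filter set its direction and its call is no support for a difference. The median absolute log2 fold change was 3.52 over the 7 enzymes and 0.845 over all tested genes. This is a description only, as the enzymes were chosen with earlier results of these data known and include PTGR1.

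**Figure D2:**
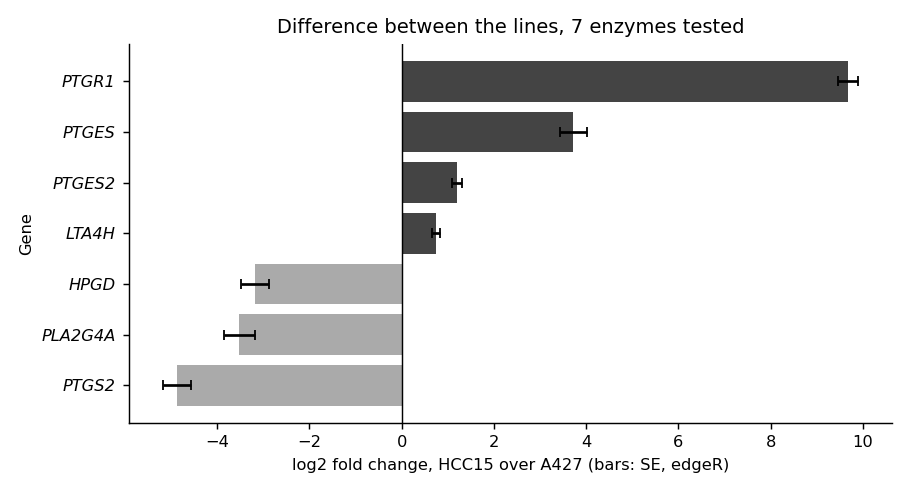
Fitted log2 fold change of the 7 enzymes tested, HCC15 over A427, with bars for the SE from edgeR. Values run from 9.67 for PTGR1 to -4.86 for PTGS2, with 4 enzymes higher and 3 lower in HCC15.

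Of the 7 enzymes, 0 to 2 passed in the tests of single LGR6 siRNAs, each fitted over both lines. With siRNA 2 against control, 0 of the 7 passed edgeR's adjusted threshold and 0 had an unadjusted p under 0.05, where 7.62% of all tested genes passed. DESeq2 and limma also called 0. With siRNA 4 against control, 2 of 7 passed, where 12.5% of all tested genes did: PTGR1 rose and HPGD fell. With siRNA 4 against siRNA 2, HPGD alone passed, where 16.5% of all tested genes did. The comparisons with control share the same control libraries, so their values are set side by side only.

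PTGR1 in HCC15 was 1.31 times control with siRNA 2 (95% counting interval 1.26 to 1.37) and 1.76 times control with siRNA 4 (1.69 to 1.84). In A427 it had 2 reads with siRNA 2, 8 with siRNA 4 and 7 with control, too few to set apart. The fitted log2 fold change was 0.32 with siRNA 2 (SE 0.20, edgeR adjusted p = 0.358) and 0.79 with siRNA 4 (SE 0.20, edgeR adjusted p = 0.0374). The call with siRNA 4 was not kept by edgeR's older fit (0.78, adjusted p = 0.0572), DESeq2 (0.63, adjusted p = 0.621) or limma on log2(TPM + 1) (0.43, adjusted p = 0.244). It was lost without the A427 control (0.87, edgeR adjusted p = 0.0841) and without HCC15 siRNA 4 (0.99, edgeR adjusted p = 0.496), and without the HCC15 control the sign turned (-0.14, edgeR adjusted p = 0.951).

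HPGD in HCC15 was 1.11 times control with siRNA 2 (interval 0.438 to 2.86) and 0.205 times control with siRNA 4 (0.0218 to 0.962), on 12, 2 and 10 reads for siRNA 2, siRNA 4 and control. In A427 it was 0.959 times control with siRNA 2 (0.712 to 1.29) and 0.388 times control with siRNA 4 (0.259 to 0.570), on 87, 37 and 101 reads. With siRNA 4 both lines were therefore below control. The fitted log2 fold change with siRNA 4 was -1.44 against control (SE 0.34, edgeR adjusted p = 0.0307) and -1.42 against siRNA 2 (SE 0.35, edgeR adjusted p = 0.0282). The call against control was not kept by edgeR's older fit (-1.50, adjusted p = 0.0577) or limma on log2(TPM + 1) (-0.54, adjusted p = 0.181), and DESeq2 gave no adjusted p. It was also lost without the HCC15 control (-1.44, edgeR adjusted p = 0.183), the A427 control (-1.46, 0.435), HCC15 siRNA 4 (-1.34, 0.125) or A427 siRNA 4 (-2.31, 0.160). The call against siRNA 2 was lost whichever library was left out, with edgeR adjusted p from 0.0679 to 0.158.

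PTGS2 was below control with both siRNAs in HCC15 and above it with both in A427. In HCC15 it was 0.859 times control with siRNA 2 (interval 0.548 to 1.35) and 0.536 times control with siRNA 4 (0.309 to 0.906), on 41, 23 and 44 reads. In A427, where LGR6 had 0 reads with either LGR6 siRNA and 5 with control, it was 1.79 times control with siRNA 2 (1.63 to 1.97) and 2.27 times control with siRNA 4 (2.08 to 2.49). The difference did not pass in HCC15 (log2 fold change -0.51, SE 0.41, edgeR adjusted p = 1) or in A427 (log2 fold change 1.02, SE 0.37, edgeR adjusted p = 1). The difference between the lines in this response was -1.54 (SE 0.55, edgeR adjusted p = 0.99997) and did not pass either.

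PLA2G4A was 0.598 times control with siRNA 2 (interval 0.407 to 0.872) and 0.277 times control with siRNA 4 (0.160 to 0.459) in HCC15. In A427 it was 0.972 times control with siRNA 2 (0.856 to 1.10) and 1.40 times control with siRNA 4 (1.25 to 1.57). Within HCC15 the log2 fold change of both siRNAs together was -1.18 (SE 0.53, edgeR adjusted p = 1), which did not pass. PTGES was above control with siRNA 2 and below it with siRNA 4 in HCC15 (1.28 and 0.749 times), and below and above it in A427 (0.636 and 1.32 times). PTGES2 was above control in 4 of 4 LGR6 siRNA libraries (1.09 to 1.32 times) and LTA4H below it in 4 of 4 (0.916 to 0.958 times), neither past the threshold. LTA4H thus kept its level within a narrow range at every siRNA, on 3362 to 6127 reads. PLA2G4A spanned 0.53 to 1.99 TPM in HCC15, on 20 to 74 reads. In A427 it spanned 13.58 to 19.18 TPM, on 460 to 696 reads. The counting intervals cover counting error only and treat reads as independent molecules.

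**Figure D3:**
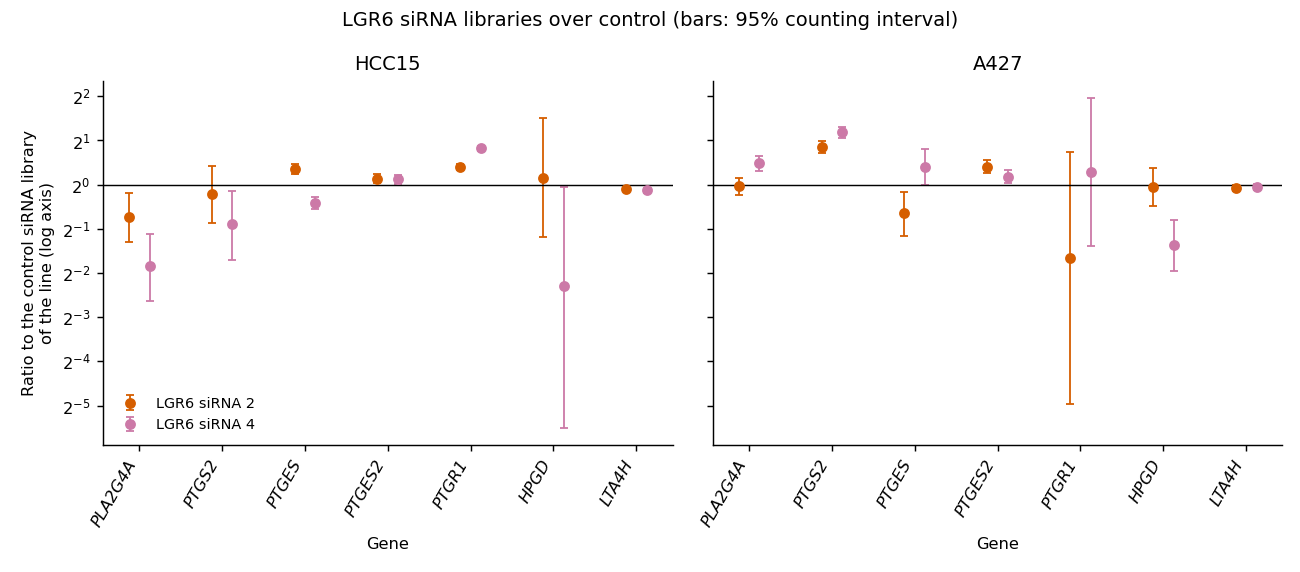
Ratio of each LGR6 siRNA library to the control library of its line (log axis) for the 7 enzymes tested in HCC15 (left) and A427 (right), with bars for the 95% counting interval. In A427 PTGS2 lies above control with both siRNAs, at 1.79 and 2.27 times, and in HCC15 PLA2G4A lies below it with both, at 0.598 and 0.277 times.

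When both siRNAs were pooled against control, 0 of 7 enzymes and 0% of all tested genes passed edgeR's threshold across both lines, where 0 enzymes and 1512 genes had an unadjusted p under 0.05. Within HCC15 the counts past the threshold were 0 enzymes and 0% of genes, with 0 and 535 at an unadjusted p under 0.05. Within A427 they were 0 enzymes and 0% of genes, with 1 (PTGS2) and 390 unadjusted. For the difference between the lines they were 0 enzymes and 0% of genes, with 1 (PTGS2) and 78 unadjusted. DESeq2 called 0 enzymes in each of these comparisons, with 387 genes across both lines, 33 within HCC15, 4 within A427 and 0 for the difference. Limma on log2(TPM + 1) called 0 enzymes in each, with 1 gene across both lines and 0 in the others. In the fit that took the siRNA number for a replicate block, edgeR called 1298 genes across both lines, 114 within HCC15 and 0 within A427, and still 0 of the enzymes. PTGR1 across both lines then had a log2 fold change of 0.56 (edgeR adjusted p = 0.0894), and PTGS2 within A427 one of 1.02 (edgeR adjusted p = 0.258).

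The rest of the pathway was followed through 7 lists of 77 genes, of which 41 were tested; values in brackets are edgeR log2 fold changes of genes past the threshold. Between the lines, phospholipases and fatty acid supply had 4 higher and 9 lower in HCC15 of 15 tested (median log2 fold change -0.82, against -0.03 over all tested genes). Of all tested genes, 37.2% were higher and 39.3% lower in HCC15, which is the background for every list. PLA2G1B, a secreted phospholipase, was at least 83.7-fold higher in HCC15, with 247 to 277 reads against 0 in all A427 libraries, taking 3 reads per library as the floor. MGLL, which frees arachidonic acid from a monoglyceride, was higher in HCC15 (log2 fold change 6.63), and the desaturase FADS2 and the phospholipase PLA2G6 were lower (-5.18 and -2.63). FADS2 had 5.14 to 7.18 TPM in HCC15 and 142 to 340 TPM in A427.

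Beside 37.2% of all tested genes higher and 39.3% lower, prostanoid synthases and reductases had 4 higher and 0 lower in HCC15 of 7 tested (median 0.65). These were the carbonyl and aldo-keto reductases AKR1C3 (log2 fold change 5.78), CBR3 (2.94), CBR1 (1.16) and AKR1B1 (0.65). AKR1C3 passed the read filter through HCC15 alone, and it shares near-identical sequence with other AKR1C genes, so its value is uncertain. HPGDS, a synthase of prostaglandin D2, and PTGIS, that of prostacyclin, had 0 reads in all 6 libraries. PTGDS, also a prostaglandin D2 synthase, had 0 to 10 reads in HCC15 and 4 to 15 in A427. TBXAS1, the thromboxane synthase, had at most 6. Of prostaglandin breakdown and transport, 1 was higher and 2 lower of 3 tested (median -1.30): the exporter ABCC4 (0.90), and the reductases PTGR2 (-1.75) and ZADH2 (-1.30). PTGR2 and ZADH2 thus ran opposite to PTGR1. Of the prostanoid receptors, 2 of 9 were tested and both were lower in HCC15 (median -2.08), the thromboxane receptor TBXA2R (-2.29) and the prostaglandin E2 receptor PTGER4 (-1.87).

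Lipoxygenases and leukotriene enzymes had 2 higher and 3 lower of 5 tested (median -0.79). MGST2, which can make leukotriene C4, was at least 121-fold higher in HCC15, with 310 to 461 reads against 0 in all A427 libraries. GGT5, which cleaves leukotriene C4, was higher in HCC15 (4.66), and MGST3 (-0.79) and GGT1 (-1.56) were lower. GGT1 has near-identical copies, so its value is uncertain. ALOX12 had 0 reads in all 6 libraries and ALOX15 at most 2. Receptors for leukotrienes and other lipid mediators had 1 higher and 1 lower of 4 tested (median -0.31). These were LGR6, and GPR37 (-6.87), with 2 to 4 reads in HCC15 and 250 to 486 in A427. LTB4R, the leukotriene B4 receptor, had 2.07 to 2.29 TPM in HCC15 and 2.17 to 3 TPM in A427. The lipid mediator receptors FPR2 and GPR18 had 0 reads in all 6 libraries, GPR32 had at most 1, and CMKLR1 had 1 to 4 reads in HCC15 and 0 in A427. Epoxygenases and hydrolases of fatty acid epoxides, listed together with CYP4F genes, had 4 higher and 1 lower of 5 tested (median 3.25). The 4 higher included CYP4F3 and CYP4F11. EPHX1 was higher in HCC15 (3.25), with 263 to 295 TPM against 24.9 to 35.4 TPM in A427, and so were CYP4F11 (3.99) and EPHX2 (0.89). CYP2J2, an arachidonic acid epoxygenase, was lower, at 0.04, 0 and 0 TPM in HCC15 and 2.58, 3.41 and 2.96 TPM in A427. In each of these lists the share that differed is read against the 76.5% of all tested genes that did. Of the 41 genes, 9 had under 10 reads in every library of 1 line (PLA2G1B, MGLL, MGST2, ALOXE3, AKR1C3, LGR6, GPR37, CYP2J2 and CYP4F3). Like PTGR1, these passed the filter through the other line alone, so the filter set their direction. The list counts and medians that include them are therefore no support for a difference.

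**Figure D4:**
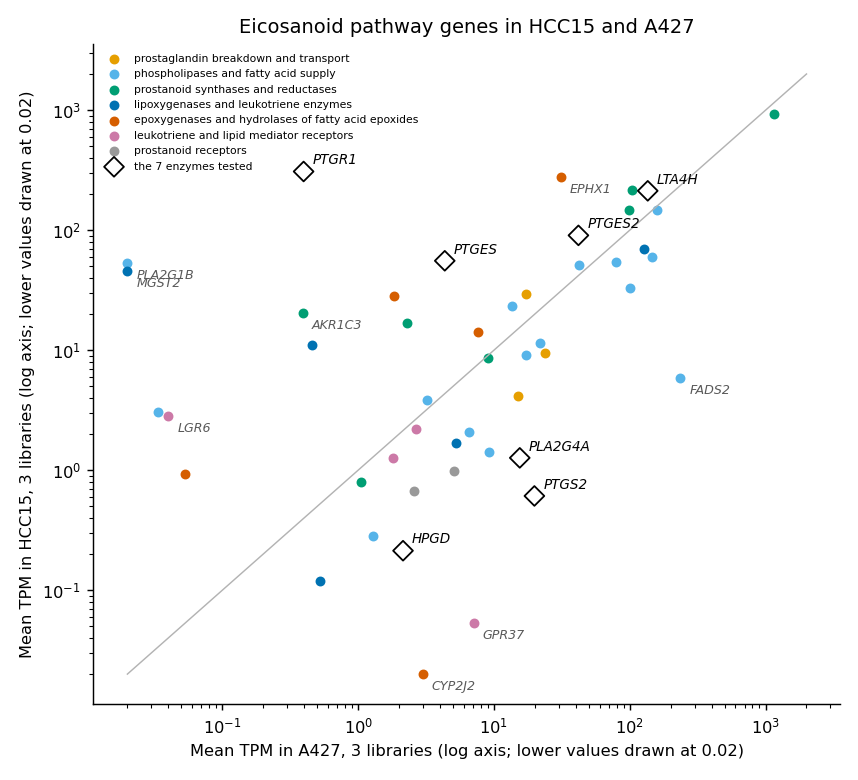
Mean TPM over the 3 libraries of HCC15 (vertical, log axis) and of A427 (horizontal, log axis), with diamonds for the 7 enzymes tested and points for the other pathway genes tested, coloured by list. Values under 0.02 are drawn at 0.02 and the line marks equal levels, so PTGR1 and PTGES lie above it and PTGS2, PLA2G4A and HPGD below it.

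With LGR6 siRNA 2 against control, 5 of the 40 other pathway genes tested passed (12.5%, beside 7.62% of all tested genes). The lysosomal phospholipase PLA2G15 rose (log2 fold change 1.05), and so did LPCAT3, which puts arachidonate into phospholipids (0.87), and CBR1 (0.59). The elongase ELOVL5 (-0.67) and PTGES3, a cytosolic prostaglandin E synthase and HSP90 co-chaperone (-0.99), fell. With siRNA 4 against control, 7 of 40 passed (17.5%, beside 12.5% of all tested genes). LPCAT3 (0.80), PLA2G15 (0.75), CBR1 (0.48), GPR37 (0.86) and the phospholipase PLA2G4C (1.48) rose, and ZADH2 (-0.71) and EPHX2 (-0.96) fell. PTGES3 had 408, 1386 and 1007 TPM in HCC15 and 818, 1401 and 1253 TPM in A427 with siRNA 2, siRNA 4 and control, so in both lines it was lowest with siRNA 2.

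Between siRNA 4 and siRNA 2, 10 of 40 passed (25%, beside 16.5% of all tested genes). PTGES3 (1.35), ELOVL5 (0.73), GGT5 (1.13), GPR37 (0.89), CYP4F11 (1.35), PLA2G4C (1.71) and CYP4F3 (2.08) were higher with siRNA 4, and FADS2 (-0.84), ZADH2 (-1.11) and EPHX2 (-1.15) lower. PLA2G4C and CYP4F3 had few reads and were named after their values were seen, and CYP4F genes share near-identical sequence, so the CYP4F values are uncertain. CYP4F3 turned to -1.12 without HCC15 siRNA 4.

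With siRNA 2 against control, limma on log2(TPM + 0.1) lost PTGES3 (adjusted p = 0.0543). With siRNA 4 against control, edgeR's older fit lost CBR1 (adjusted p = 0.0550), GPR37 (0.0863) and PLA2G4C (0.0525). DESeq2 lost GPR37 (0.204) and gave no adjusted p for PLA2G4C, limma on log2(TPM + 1) lost EPHX2, GPR37 and ZADH2 (0.0582 to 0.325), and edgeR with no filter lost CBR1 (0.0558). Between the siRNAs, edgeR's older fit lost GPR37 (0.0646) and CYP4F3 (0.136). DESeq2 lost GGT5 (0.0667) and GPR37 (0.178) and gave no adjusted p for CYP4F3 and PLA2G4C, limma on log2(TPM + 1) lost CYP4F11, GGT5 and GPR37 (0.0757 to 0.288), and edgeR with no filter lost CYP4F3 (0.0597). All 5 calls with siRNA 2 were lost without the HCC15 control (edgeR adjusted p from 0.182 to 0.340), the A427 control (0.0714 to 0.235) or HCC15 siRNA 2 (0.0577 to 0.119), and CBR1 also without A427 siRNA 2 (0.126). All 7 calls with siRNA 4 were lost without the HCC15 control (0.186 to 0.388), the A427 control (0.0584 to 0.782) or HCC15 siRNA 4 (0.106 to 0.313), and GPR37, PLA2G15 and PLA2G4C also without A427 siRNA 4 (0.0686 to 0.597) and GPR37 without A427 siRNA 2 (0.0517). Of the 10 calls between the siRNAs, leaving out 1 library ended 3 to 8, the most without HCC15 siRNA 4 (8, edgeR adjusted p from 0.0937 to 0.792) and HCC15 siRNA 2 (7, 0.0665 to 0.407).

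The genes whose levels followed PLA2G4A and PTGS2 most closely across the 6 libraries, after the mean of each line was subtracted from log2(CPM + 0.5), were sought among 9860 genes. For PLA2G4A they were MARCH9 (Pearson r 0.999), MTSS1L (0.992) and CXCL16 (0.988). For PTGS2 they were ORMDL1 (0.9997), ITPK1 (0.9996) and GOLGA8B (0.986). These are descriptions over 6 libraries that share line and siRNA, the closest of many genes. ORMDL1 moved far less than PTGS2: it had 72.7, 68.2 and 74.4 CPM in HCC15 and 32.5, 34.2 and 28.9 CPM in A427 with siRNA 2, siRNA 4 and control. In HCC15, in the same order, MARCH9 had 2.14, 1.44 and 2.93 CPM and PLA2G4A 1.68, 0.779 and 2.81 CPM. Their likeness thus rests in part on low counts.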

How the data were processed

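RNA from 6 libraries was sequenced after KAPA mRNA HyperPrep preparation, per the labels' protocols. FastQC 0.11.1, STAR 2.5.3a, RSEM 1.3.3 and hg19 are named in the submitters' processing notes. The authors deposited expected counts per gene, which need not be whole, and TPM, scaled for length and total. The annotation and strand setting are not given in the sources used here. In each library 5.75% to 6.29% of expected counts were not whole, and they were rounded. All counts of the 10 enzymes were whole.

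Genes reaching 10 reads in 2 or more libraries were tested with TMM scaling and edgeR 4.0.16 (quasi-likelihood, without the legacy setting) in R 4.3.3, with Benjamini-Hochberg adjustment. HCC15 against A427 and the single siRNAs used a fit of line plus siRNA (2 residual degrees of freedom), pooled siRNAs line plus arm (3), and responses within a line and their difference line by arm (2). The older quasi-likelihood setting was run first, and the present one was made the main fit after those results had been seen. The older fit's values are given beside the calls it changes. By the labels, siRNA 2 and siRNA 4 are each 1 reagent used in both lines, which pairs the libraries by siRNA. DESeq2 1.42.0, limma 3.58.1 on TPM, other size factors, no filter, each library left out and the replicate block were alternatives. Across both lines the replicate block averaged the effects of siRNA 2 and siRNA 4 in the line plus siRNA fit. Within a line it added a term for siRNA 4 against siRNA 2 to the line by arm fit, leaving fewer residual degrees of freedom. The main fits were tested on simulated data.

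Ratios to control used TMM-scaled counts with exact binomial 95% intervals. Up to 4 genes per list and comparison were named, those past the threshold that changed most, at a mean CPM of 1 or more. Likeness was sought for the 2 enzymes with a mean CPM of at least 1 in each line and the widest range, among genes with a mean CPM of at least 10. Members and lists were chosen with earlier results of these data known.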

Additional observations from a re-analysis of the deposited data

Results flagged for a closer look

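PTGS2 lay on opposite sides of control in the 2 lines. With siRNA 2 and siRNA 4 it was 0.859 times (95% counting interval 0.548 to 1.35) and 0.536 times (0.309 to 0.906) control in HCC15, and 1.79 times (1.63 to 1.97) and 2.27 times (2.08 to 2.49) control in A427. The interval for siRNA 2 in HCC15 includes 1, and neither line passed edgeR's test. The response in HCC15 minus that in A427 was -1.54 on the log2 scale (SE 0.55), and edgeR's test of this difference did not pass after Benjamini-Hochberg adjustment (edgeR adjusted p = 0.99997). HCC15 held 23 to 44 PTGS2 reads per library and A427 707 to 1518. Each line had 1 control library, so the ratios within a line share it.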

How the results depend on the processing

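Between the lines, 7 enzymes passed in every alternative run except that with no filter on reads, where PTGS1 and ALOX5 were tested too and 9 passed. With siRNA 4 against control the count of enzymes called was 2, and 0 under DESeq2, limma on log2(TPM + 1), limma on log2(TPM + 0.1) and edgeR's older fit, which was run first, the main setting being chosen after seeing the data it gave; leaving out 1 library gave 0 to 2. With siRNA 4 against siRNA 2 it was 1, and 0 under DESeq2, which gave HPGD no adjusted p in either comparison, and limma on log2(TPM + 1); leaving out 1 library gave 0 to 0. With 1 library left out, the log2 fold change of PTGR1 with siRNA 4 ran from -0.14 (without the HCC15 control) to 0.99, and that of CYP4F3 between the siRNAs from -1.12 (without HCC15 siRNA 4) to 5.27; the cause was not tested. Counts over all genes moved by more than 1.5 times in places: with siRNA 2, 1104 became 678 under limma on log2(TPM + 0.1) and 4 to 1438 with 1 library left out; with siRNA 4, 1814 became 1145 and 97 to 2097; between the siRNAs, 2395 became 439 to 2220. The replicate block by siRNA number called 1298 genes across both lines and 114 within HCC15, where the fits without it called 0, and changed no call on an enzyme. Responses within a line and their difference have no value without that line's control. Each line rests on 1 control library, and PTGS1, ALOX5 and ALOX15B had at most 9 reads per library.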
